A study of Mus musculus with 2 samples.

Results

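The genes described here are the proteins of the mitochondrial ribosome and of the machinery that imports proteins into mitochondria, as RNA levels in CD45-negative cells of mouse tumours. Members were chosen by gene symbol, with earlier results of these data known. Every listed gene named Mrpl or Mrps with a number (large and small subunit of the mitochondrial ribosome) is a member. So is every listed gene named Timm or Tomm with a number (inner and outer membrane import). The rule took 99 of 12707 listed genes, with 48 in the large subunit, 28 in the small subunit, 14 Timm genes and 9 Tomm genes. Some symbols and functions part ways. The products of Mrps18a and Mrps30 sit in the large subunit, Mrps36 is now known as a part of a dehydrogenase complex, and Tomm34 encodes a cytosolic protein. Subunits with other names, such as Dap3 and Ptcd3, are not members and are given further on.

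Py8119 is a mouse mammary tumour line with a mesenchymal character. The cells were injected into hosts with wild-type Mtdh (WT host) or with Mtdh knocked out (KO host), and live cells without CD45, a surface protein of leukocytes, were sorted from the tumours for bulk RNA-seq. The injected cells carried wild-type Mtdh in both groups. There was 1 library per host genotype, so no difference has a replicate check, no test was possible, and each value describes this pair of libraries. The number of mice or tumours behind a library, host strain and age, and the kind of knockout are not stated in the labels. The sort leaves tumour cells together with any stromal cells of the host, and in such bulk samples fewer cells of a type and less RNA per cell cannot be told apart.

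The mitochondrial ribosome translates the few messenger RNAs of the mitochondrial genome, all of which encode parts of the respiratory chain and ATP synthase. Its own proteins are encoded in the nucleus, made in the cytosol and imported. Nearly all precursors enter through the TOM complex of the outer membrane. From there the TIM23 complex threads those with a presequence into the matrix, and small TIM chaperones carry hydrophobic carrier proteins across the intermembrane space to the TIM22 complex.

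Levels are given on 2 scales. The deposited value is log2(FPKM + 1), where FPKM was computed by the authors per kilobase of the whole genomic span of a gene, introns included. From these values the reads behind each gene were recovered, 26069372 in all for the WT host and 23381742 for the KO host, and RPM means recovered reads per 1000000. A ratio is always the RPM of the KO host over that of the WT host, with a 95% exact conditional binomial interval that covers counting error only. Members were shallow: their median was 429 reads over both libraries against 1102 for all listed genes, and 35 of the 99 had fewer than 300. Mtdh itself had 28376 reads in the library from the WT host and 23130 in that from the KO host, which checks the labels little, since the tumour cells carry the gene. Among marker lists, fibroblast genes summed to 2022 and 787 RPM (6 of 7 listed) and pericyte and smooth muscle genes to 387 and 83.0 RPM (3 of 6 listed, Cspg4 at 0 in the KO host). The other lists, in the same order, gave 10.1 and 13.0 RPM for leukocytes in general (7 of 8), 171 and 213 for macrophages (9 of 9), 0.988 and 2.31 for T and NK cells (2 of 8), 18.3 and 14.2 for endothelium (3 of 7), 3.72 and 2.31 for erythroid cells (1 of 5), and 9818 and 9406 for the mesenchymal tumour genes (7 of 7). Genes of a list did not always move together. Among endothelial genes Cdh5 had 1 and 146 reads, Plvap 348 and 58, and Pecam1 129 and 128. Of the T cell genes Cd4 had 19 and 1 reads and Cd8a 6.8 and 53. Of 5 fibroblast genes with 100 reads or more, 4 were 2-fold lower, while Pdgfra had a ratio of 0.966. The part of stromal or other cells in any member's difference was not tested.

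Promoters are shown first for members that bear on position, described further on: 4 whose divergent neighbour had a 2-fold difference of the same direction, Timm8b, whose neighbour did not, and Tomm22, the member with the highest level per length. Each is a RefSeq window of 300 bases on build GRCm38.p6, from 250 bases before to 50 bases after the annotated start, written 5′ to 3′ on the gene's strand. Capitals mark matches to any of the motifs named below.
Mrpl2 (chr17:46645971-46646270, plus strand, 1 of its 3 overlapping windows): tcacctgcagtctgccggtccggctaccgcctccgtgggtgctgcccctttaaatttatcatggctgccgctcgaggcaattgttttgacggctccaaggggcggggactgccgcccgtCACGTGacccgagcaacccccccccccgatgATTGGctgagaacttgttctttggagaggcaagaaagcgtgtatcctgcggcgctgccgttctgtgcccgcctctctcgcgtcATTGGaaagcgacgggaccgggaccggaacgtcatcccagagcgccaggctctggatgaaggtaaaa
Mrpl30 (chr1:37890227-37890526, plus strand): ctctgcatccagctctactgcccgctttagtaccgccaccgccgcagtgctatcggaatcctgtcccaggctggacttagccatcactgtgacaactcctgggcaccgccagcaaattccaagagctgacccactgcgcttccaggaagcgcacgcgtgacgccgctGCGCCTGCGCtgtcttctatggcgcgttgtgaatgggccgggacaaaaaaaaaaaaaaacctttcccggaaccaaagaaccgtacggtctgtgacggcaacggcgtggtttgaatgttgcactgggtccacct
Mrpl46 (chr7:78783040-78783339, minus strand): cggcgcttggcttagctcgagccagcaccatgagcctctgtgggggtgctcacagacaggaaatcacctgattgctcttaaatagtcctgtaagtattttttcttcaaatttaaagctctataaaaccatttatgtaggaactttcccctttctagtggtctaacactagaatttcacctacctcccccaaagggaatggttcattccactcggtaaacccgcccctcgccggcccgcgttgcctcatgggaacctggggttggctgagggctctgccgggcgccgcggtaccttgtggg
Mrpl50 (chr4:49521034-49521333, minus strand): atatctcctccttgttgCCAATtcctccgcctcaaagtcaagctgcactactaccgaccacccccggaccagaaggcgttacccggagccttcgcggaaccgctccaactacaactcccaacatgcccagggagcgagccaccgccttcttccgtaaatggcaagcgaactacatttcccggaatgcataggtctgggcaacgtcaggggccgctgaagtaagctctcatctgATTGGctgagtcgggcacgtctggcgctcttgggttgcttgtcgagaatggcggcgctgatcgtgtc
Timm8b (chr9:50603651-50603950, plus strand): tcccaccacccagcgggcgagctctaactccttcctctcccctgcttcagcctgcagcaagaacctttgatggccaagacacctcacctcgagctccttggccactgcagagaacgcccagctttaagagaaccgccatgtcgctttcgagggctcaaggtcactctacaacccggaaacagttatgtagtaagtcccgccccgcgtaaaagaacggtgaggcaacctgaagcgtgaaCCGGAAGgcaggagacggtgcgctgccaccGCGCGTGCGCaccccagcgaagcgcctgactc
Tomm22 (chr15:79670618-79670917, plus strand): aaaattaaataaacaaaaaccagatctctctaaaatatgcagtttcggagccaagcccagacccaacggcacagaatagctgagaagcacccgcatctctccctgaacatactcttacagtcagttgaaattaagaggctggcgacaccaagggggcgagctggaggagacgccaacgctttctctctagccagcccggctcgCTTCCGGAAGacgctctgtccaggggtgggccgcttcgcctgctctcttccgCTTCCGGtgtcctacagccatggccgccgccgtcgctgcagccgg
The Mrpl2 window holds 1 E-box and 2 CCAAT boxes, that of Mrpl30 1 NRF1 match, that of Mrpl50 2 CCAAT boxes, and that of Timm8b 1 NRF1 and 1 ETS match. The Tomm22 window holds 3 ETS matches, of which the first and second overlap in a run that reads the same on both strands. None of the motifs was found in the Mrpl46 window.

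Across all members the libraries from the 2 hosts differed little in total, and single genes lay far on either side. Members summed to 2099 RPM in the library from the WT host and 2000.5 RPM in that from the KO host, a ratio of 0.953 (0.942 to 0.965). The 3 outer membrane receptors Tomm20, Tomm22 and Tomm70a alone gave 731 and 670 RPM, and without them the sums were 1368 and 1331 RPM. Of the 88 members with 100 reads or more over both libraries, 17 were at least 2-fold higher in the library from the KO host (19.3%) and 14 at least 2-fold lower (15.9%), 55 lay between and 2 were listed at 0 in a library. Among all 10813 genes with as many reads, 8.36% were 2-fold higher and 11.2% 2-fold lower. The ratio was above 1 for 46 members and 4862 of these genes, and below 1 for 40 members and 5808 genes. The read minimum was set on the sum of both libraries, so a gene can pass it through the library where it is high alone. Mrps22, with 105 and 2 reads, did so. Other members past 2-fold, named after their values were seen, also had fewer than 100 reads in the library where they were low. Of the higher ones these were Mrpl53, Mrpl3, Mrpl27, Mrpl23, Mrpl42, Mrps15, Mrps36, Timm8b, Timm10 and Tomm7. Of the lower ones they were Mrpl30, Mrpl36, Mrpl16, Mrps11, Mrps26 and Timm9. For all of these the read minimum and the difference are not independent. The median log2 ratio of the members was 0.10, with quartiles at -0.75 and 0.66, against -0.06 for all genes.

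Read depth moved with these shares. In the class of 100 to 300 reads, 14 of 24 members (58.3%) differed 2-fold either way, and so did 51.5% of all listed genes of that class. Between 300 and 1000 reads it was 14 of 38 members (36.8%) and 32.7% of all genes. Between 1000 and 3000 reads it was 3 of 21 members (14.3%) and 11.3%, and from 3000 reads it was 0 of 5 members and 3.01%. The classes hold few members, and in each the share among members was somewhat above that among all genes except in the deepest, where it was 0. The 3 such members with 1000 to 3000 reads were Timm17a, higher, and Mrpl19 and Mrpl50, lower. For most members the interval of the ratio excluded 1: it lay above 1 for 39 of the 88 members (44.3%) and below 1 for 38 (43.2%), where 36.8% and 45.7% of all genes did the same. Of 86 members with a ratio, 4 lay outside the 5th to 95th percentile of all listed genes of their read class, a band that leaves out 10% of all genes by construction. These were Mrps22, Mrpl50 and Tomm20 on the lower side and Timm17a on the higher side.

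**Figure D1:**
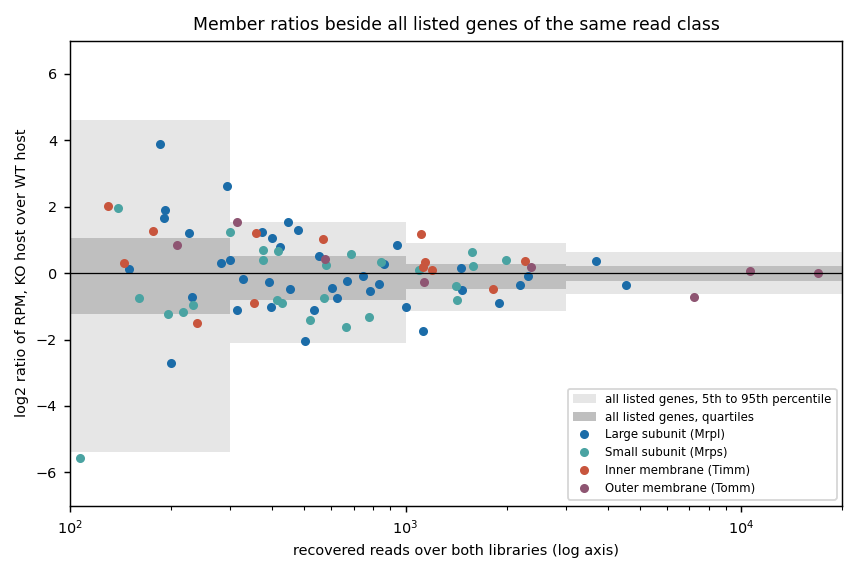
Log2 ratio of RPM, KO host over WT host, against recovered reads over both libraries (log axis) for the 86 members with 100 reads or more and a value above 0 in both libraries. Grey bands give the quartiles and the 5th to 95th percentile of all listed genes in 4 read classes; the spread narrows with depth, and 4 members lie outside the wider band.

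On the deposited scale few members passed the rule of a log2 difference of 1 or more. Of the 99, 56 had a mean log2 value of 1 or more. Among these, 2 were higher in the library from the KO host, Mrpl53 and Timm8b, and 3 were lower, Mrpl36, Mrpl50 and Timm13, while 51 lay between. Mrpl53 (0.64 and 3.20), Timm8b (0.82 and 2.03) and Timm13 (2.50 and 0) passed the filter only through the library where they were high. For these genes the filter and the difference are not independent. The share of all 6057 genes past the same filter was 2.31% higher and 2.64% lower. The median difference of the 56 was 0.09 against -0.03 over all genes. The added 1 and the genomic span hide much on this scale: of the 31 members with a 2-fold difference in reads, 27 had a deposited difference under 1. Mrps35, with a span of 31.2 kb, had 516 and 150 reads and a deposited difference of only -0.44.

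Large subunit genes went both ways. The 48 genes summed to 715 RPM in the library from the WT host and 656 RPM in that from the KO host, a ratio of 0.917 (0.898 to 0.937). Of all listed genes with 100 reads or more, 8.36% were 2-fold higher and 11.2% 2-fold lower, shares not matched for depth. Of the 40 large subunit genes with as many reads, 18 had a ratio above 1 and 22 below it, with 9 at least 2-fold higher and 7 at least 2-fold lower. The higher ones were Mrpl53, Mrpl3, Mrpl27, Mrpl23, Mrpl12, Mrpl48, Mrpl2, Mrpl42 and Mrpl13, and the lower ones Mrpl30, Mrpl36, Mrpl50, Mrpl16, Mrpl49, Mrpl19 and Mrpl46. Those that are neither among the 3 highest nor the 3 lowest ratios of a family, here and below, were named after their values were seen.

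Mrpl53 (ENSMUSG00000030037, chr6:83086021-83086920, mm39), a protein of the mammalian large subunit, had 13 reads in the library from the WT host and 172.5 in that from the KO host. Its deposited FPKM was 0.554 and 8.20, and its RPM was 14.8-fold higher (8.45 to 28.4), the highest ratio among members with 100 reads or more. The gene was low in the first library only, and its recovered reads in the second are not whole, so its value there is less certain. Mrpl3, whose bacterial counterpart lies near the peptidyl transferase centre, had 45 and 249 reads, 6.17-fold higher (4.48 to 8.68). Mrpl27 had 44 and 148 reads, 3.75-fold higher (2.66 to 5.38). Both genes were low in the library from the WT host and had fewer than 300 reads in all. Mrpl12, a stalk protein that also binds the mitochondrial RNA polymerase, had 125 and 323 reads, 2.88-fold higher (2.34 to 3.57), and its stalk partner Mrpl10 had 2658 and 1864 reads, a ratio of 0.782 (0.737 to 0.830).

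Lower members of the large subunit were somewhat deeper. Mrpl50 (ENSMUSG00000044018, chr4:49512596-49521093, mm39) had 889 reads in the library from the WT host and 239 in that from the KO host, and its deposited FPKM was 4.01 and 1.20. Its RPM was 3.34-fold lower (2.89 to 3.86), with a deposited log2 difference of -1.19. Of the 2-fold lower members it was the deepest, with over 1000 reads. Mrpl36, counterpart of a small bacterial ribosomal protein, had 412 and 89 reads, 4.15-fold lower (3.29 to 5.28). It overlaps Ndufs6, a complex I gene on the opposite strand, whose reads were 53 and 49. Mrpl30 had 176 and 24 reads, 6.58-fold lower (4.28 to 10.5), the lowest ratio among large subunit genes with 100 reads or more. The deepest genes of this subunit differed by less than 2-fold. Beside Mrpl10, the deepest, Mrpl58, a hydrolase that frees stalled ribosomes, had 1703 and 1988 reads, a ratio of 1.30 (1.22 to 1.39), and Mrpl24 had 1252 and 1056 reads, a ratio of 0.940 (0.866 to 1.02).

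Small subunit genes were lower by their median on the read scale and higher on the deposited scale. Genes were grouped by symbol, so Mrps18a, Mrps30 and Mrps36 are counted here. The 28 genes summed to 363 RPM in the library from the WT host and 335 RPM in that from the KO host, a ratio of 0.923 (0.896 to 0.951). On the read scale 26 had 100 reads or more, 12 with a ratio above 1 and 13 below, and the median log2 ratio was -0.39. Only 9 of the 28 passed the filter on the deposited mean, and their median difference was 0.26, with 0 past 1 in size. The deposited filter removes genes with long spans or few reads, so the sign of the small subunit median depends on which members are kept.

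On the read scale 2 Mrps genes were at least 2-fold higher, Mrps36 and Mrps15, and 6 were lower, Mrps22, Mrps35, Mrps24, Mrps18a, Mrps11 and Mrps26. Of all listed genes with 100 reads or more, 8.36% were 2-fold higher and 11.2% 2-fold lower, shares not matched for depth. As said at the start, Mrps36 and Mrps18a bear the symbol but their products lie elsewhere. Mrps22 (ENSMUSG00000032459, chr9:98470783-98483713, mm39), a gene mutated in human mitochondrial disease, had 105 reads in the library from the WT host and 2 in that from the KO host. The ratio was 0.0212 (0.00254 to 0.0786), yet the deposited log2 difference was only -0.38. Mrps24 had 388 and 131 reads, 2.66-fold lower (2.17 to 3.26), and Mrps35 was 3.09-fold lower (2.57 to 3.73). Mrps36 had 31 and 108 reads, 3.88-fold higher (2.58 to 5.99), and Mrps15 had 96 and 204 reads, 2.37-fold higher (1.85 to 3.05). Among the paralogues of bacterial S18, Mrps18a had 572 and 206 reads, 2.49-fold lower (2.12 to 2.93), and Mrps18b had 159 and 74 reads, 1.93-fold lower (1.45 to 2.57), so both were lower in the library from the KO host. No gene was listed under the symbol Mrps18c. The 2 deepest genes of the subunit were higher in the library from the KO host by less than 2-fold: Mrps5 had 916 and 1074 reads, a ratio of 1.31 (1.20 to 1.43), and Mrps23 had 777 and 813 reads, a ratio of 1.17 (1.06 to 1.29).

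**Figure D2:**
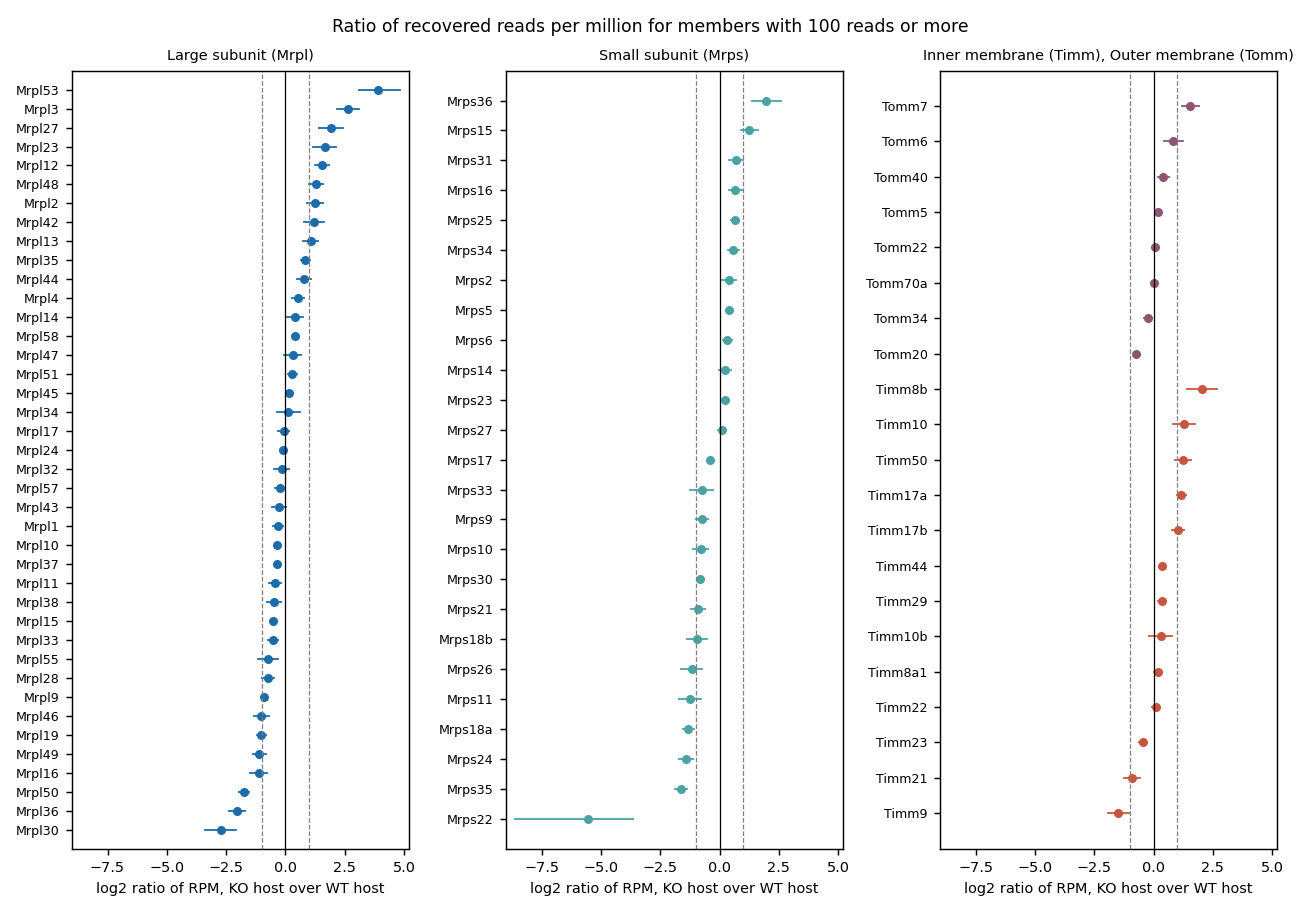
Log2 ratio of RPM, KO host over WT host, for each member with 100 reads or more and a value above 0 in both libraries (points), with its 95% counting interval (lines); dashed lines mark 2-fold. The large and small subunit genes lie on both sides of 0, from Mrpl53 at 3.89 to Mrps22 at -5.56, and 10 of the 13 Timm genes lie above 0. Of all 10813 listed genes with 100 reads or more, 4862 lie above 0 and 5808 below.

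Timm genes of the inner membrane and intermembrane space were mostly higher in the library from the KO host. The 14 summed to 203 RPM in the library from the WT host and 236 RPM in that from the KO host, a ratio of 1.16 (1.12 to 1.21), the only family of the 4 with a summed ratio above 1. Of the 13 with a ratio, 10 were above 1 and 3 below, and 5 were at least 2-fold higher against 1 lower. Of all 10813 listed genes with 100 reads or more, 4862 were above 1 and 5808 below, with 8.36% 2-fold higher and 11.2% 2-fold lower. With so few Timm genes these shares are coarse, those of all genes are not matched for depth, and no test was run on them. The median log2 ratio was 0.35, and the median deposited difference of the 12 that passed the filter was 0.29. The mean deposited difference was 0.10, with Timm13 at -2.50 among its values.

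In the TIM23 complex 3 of 6 genes were at least 2-fold higher and 0 at least 2-fold lower, beside 8.36% and 11.2% of all genes. Those shares are not matched for depth. At 300 to 1000 reads, where Timm17b and Timm50 lie, 12.8% of all listed genes were higher and 19.8% lower. At 1000 to 3000 reads, where Timm17a lies, it was 4.05% and 7.26%. Timm17a (ENSMUSG00000062580, chr1:135222951-135241516, mm39), a channel subunit, had 368 reads in the library from the WT host and 743 in that from the KO host, 2.25-fold higher (1.98 to 2.56). Its X-linked paralogue Timm17b had 199.9 and 369.2 reads, 2.06-fold higher (1.73 to 2.46). Timm50, the receptor that hands presequences to the channel, had 116 and 243 reads, 2.34-fold higher (1.86 to 2.94). All 3 were thus higher by a similar ratio, and their deposited differences were 0.62, 0.57 and 0.62, below the size rule. Timm23, the other channel subunit and the deepest Timm gene but one, had 1100 and 715.7 reads, a ratio of 0.725 (0.660 to 0.798). Timm21, which links the channel to the respiratory chain, had 239 and 114 reads, 1.88-fold lower (1.50 to 2.37). Timm44, which tethers the import motor, had 1056 and 1214 reads, a ratio of 1.28 (1.18 to 1.39). As a sum the 6 genes were at 118 and 145 RPM, a ratio of 1.23 (1.17 to 1.29).

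Small TIM chaperones lay on both sides of a ratio of 1. Timm8b (ENSMUSG00000039016, chr9:50515210-50516620, mm39) had 28 reads in the library from the WT host and 102 in that from the KO host, 4.06-fold higher (2.65 to 6.41). Timm13, which forms a hexamer with the Timm8 proteins, had 184 reads in the library from the WT host and was listed at 0 in the other. Timm8a1, X-linked and the third gene of this pair of complexes, had 555 and 571 reads, a ratio of 1.15 (1.02 to 1.29). So 3 genes whose products work together were higher, listed at 0 and close to equal in the KO host library. The partners of the other hexamer also differed: Timm10 had 56 and 121 reads, 2.41-fold higher (1.74 to 3.37), and Timm9 had 182 and 58 reads, 2.81-fold lower (2.08 to 3.85). The 5 chaperone genes together were at 38.6 and 36.4 RPM, a ratio of 0.945 (0.862 to 1.04). Genes of the TIM22 complex, which inserts carriers, differed less: Timm22 had a ratio of 1.08 (0.961 to 1.21), Timm29 of 1.27 (1.13 to 1.43) and Timm10b, with 69 and 76 reads, of 1.23 (0.875 to 1.73). No gene was listed under the symbol Timm8a2.

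Tomm genes of the outer membrane included the deepest members, and of their 3 receptors 1 was lower, by less than 2-fold. The 9 summed to 817 RPM in the library from the WT host and 773 RPM in that from the KO host, a ratio of 0.946 (0.927 to 0.965). Tomm70a, the receptor for carrier precursors, had 8888 and 7993 reads, a ratio of 1.003 (0.973 to 1.03). Tomm22 (ENSMUSG00000022427, chr15:79555062-79557601, mm39), the central receptor, had 5458 and 5132 reads, a ratio of 1.05 (1.01 to 1.09). These are the deepest members, and both lay close to a ratio of 1. Tomm20, the receptor for presequences, had 4699 and 2539 reads, 1.66-fold lower (1.58 to 1.74), with deposited FPKM of 11.9 and 7.15.

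Channel and small TOM subunits were shallower. Tomm40, the pore, had 262 and 313 reads, a ratio of 1.33 (1.13 to 1.58). Its paralogue Tomm40l had 4 and 62 reads, 17.3-fold higher (6.42 to 65.4), in a gene under the minimum of 100 reads. Tomm7, a small subunit needed to hold the kinase PINK1 at damaged mitochondria, had 87 and 228 reads, 2.92-fold higher (2.27 to 3.79), and was the only Tomm gene with 100 reads or more past 2-fold. Tomm6 had 80 and 128 reads, a ratio of 1.78 (1.34 to 2.39), and Tomm5 had 1171 and 1186 reads, a ratio of 1.13 (1.04 to 1.23). The 3 small subunits were all above 1, with sums of 51.3 and 65.9 RPM. Cytosolic Tomm34 had 649 and 488 reads, a ratio of 0.838 (0.744 to 0.944). No gene was listed under the symbol Tomm20l.

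**Figure D3:**
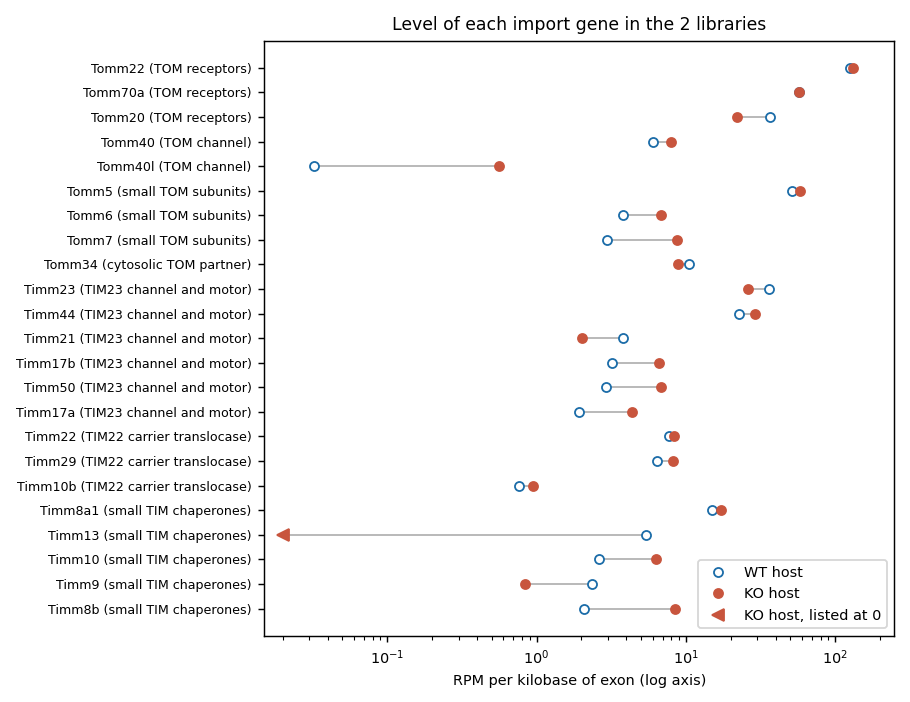
RPM per kilobase of exon (log axis) of the 23 import genes in the library from the WT host (open circles) and the KO host (filled circles), grouped by role; the triangle marks Timm13, listed at 0. Tomm22 is highest in both libraries, and Timm10, Timm8b and Tomm7 lie to the right in the KO host library.

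Levels of different genes were compared per kilobase of exon, with exon lengths matched by gene ID to the GENCODE M21 annotation, which had all 99 members. Tomm22 was the highest member in both libraries, at 127 and 133 RPM per kilobase of exon. Mrpl10, at 59.7 and 46.7, and Tomm70a, at 57.2 and 57.3, followed in the library from the WT host, and Tomm5, at 51.7 and 58.4, was next there and second in the KO host. Genes of 1 complex spread widely at the RNA level. The median of the large subunit was 4.58 RPM per kilobase in the library from the WT host and 4.72 in that from the KO host, and its highest gene was at 59.7 and 46.7. The median of the small subunit was 4.96 and 5.36, and the highest values were 22.6 for Mrps21 in the first and 24.4 for Mrps23 in the second. All listed genes had medians of 7.13 and 6.59.

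Members were also split by exon length. Of the 28 members with a ratio and at most 1162 bases of exon, 10 were 2-fold higher (35.7%) and 7 lower (25%). Of the 533 listed genes of that length, 13.9% were higher and 17.4% lower. The median log2 ratio was 0.25 for these members and -0.09 for these genes. Of the 26 members from there to 2373 bases, 3 were higher and 3 lower, 11.5% each, beside 11.4% and 14.6% of 2317 listed genes. Of the 32 longer ones, 4 were higher and 4 lower, 12.5% each, beside 7.15% and 9.99% of 7778 listed genes. The short members had a median of 300 reads and the short listed genes of 581, and the part of depth in this spread was not tested.

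A value of 0 was listed for 8 members, and 5 of these were 0 in the library from the WT host: Mrpl40, Mrpl52, Mrpl54, Mrps12 and Mrps28, with 17, 42, 33, 82 and 25 reads in the KO host. The other 3 were 0 in the library from the KO host: Mrpl22, Mrps7 and Timm13, with 12, 104 and 184 reads in the WT host. Mrps12 and Mrps7 are counterparts of bacterial proteins at the decoding site and the head of the small subunit, and every ribosome carries them, so these values are given as listed and no ratio is drawn from them. All 8 had under 300 reads, and in that range 8 of 35 members (22.9%) and 26.3% of all listed genes had a 0. Besides Mrps22 and Tomm40l, 3 members had 2 to 5 reads in a library. Mrpl18 had 5 and 64 reads, Mrpl20 had 64 and 2 reads, a ratio of 0.0348 (0.00413 to 0.131), and Mrpl21 had 2 and 47 reads, a ratio of 26.2 (6.86 to 223). These were named after their values were seen.

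Many members lie head to head with another gene. Within 1000 bp, 35 members had a listed gene starting on the opposite strand, in 34 pairs, of which 19 had their starts apart and 15 overlapped at their ends. In 25 pairs both genes had 100 reads or more and a ratio. Of these, 8 pairs (32.0%) had both ratios on the same side of 1 and 17 on opposite sides. Over all 718 such pairs of listed genes, 54.3% were on the same side. Both genes were past 2-fold in the same direction in 4 of the 25 pairs (16.0%) and in opposite directions in 0, beside 2.37% and 1.81% of all 718 pairs. With 25 pairs these shares are coarse, the 718 pairs are not matched to them for depth, and no test was run on them. Mrpl30 and Mitd1, a gene for a protein of cell abscission, start 66 bp apart, and Mitd1 had 128 and 11 reads, 10.4-fold lower, beside 6.58-fold for Mrpl30. Mrpl50 and the zinc finger gene Zfp189 start 83 bp apart, and Zfp189 had 171 and 52 reads, 2.95-fold lower. Mrpl2 and the kinesin light chain gene Klc4 start 207 bp apart, and both were higher, Mrpl2 with 120 and 255 reads and Klc4 with 15 and 150. Mrpl30, Mitd1, Zfp189, Klc4 and, in the next pair, Mrps11 had fewer than 100 reads in the library where they were low. For them the read minimum and the difference are not independent.

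The fourth pair, Mrpl46 and Mrps11, consists of a large and a small subunit gene. Mrpl46 had 275 and 122 reads, 2.02-fold lower (1.63 to 2.52), and Mrps11 had 142 and 54 reads, 2.36-fold lower (1.71 to 3.29). They overlap by 412 bp on opposite strands, and since strand handling is not given, reads from the overlap cannot be told apart. At other close starts the member alone was past 2-fold, as in these examples, chosen after their values were seen. Timm8b starts 98 bp from Sdhd, a subunit of complex II, which had 1393 and 1234 reads, a ratio of 0.988. Timm17b starts 88 bp from Pqbp1, which had 716 and 367 reads, 1.75-fold lower.

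**Figure D4:**
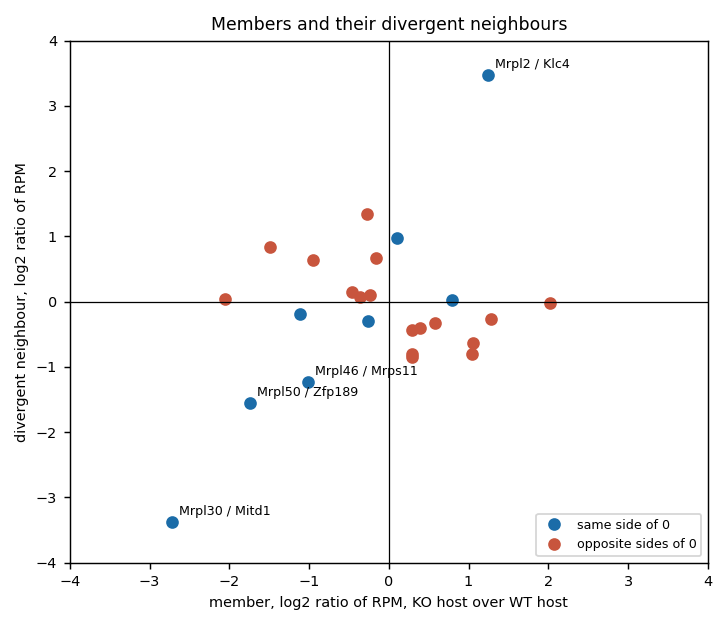
Log2 ratio of RPM, KO host over WT host, of a member (x axis) and of the gene starting within 1000 bp on the opposite strand (y axis), for the 25 pairs with 100 reads or more in both genes. Blue points lie on the same side of 0 in both genes (8 pairs) and red points on opposite sides (17 pairs); the 4 labelled pairs are past 2-fold in the same direction.

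Promoter windows were searched on both strands for 5 motifs of factors tied to housekeeping or mitochondrial genes: NRF1 (its consensus of 10 bases with 1 free position), ETS factors such as GABP (CCGGAAG), YY1 (AAGATGG), the E-box (CACGTG) and the CCAAT box (CCAAT). No motif contains another. RefSeq windows were found by symbol for 87 of the 99 members, in 95 windows. Members without a window were Mrpl13, Mrpl15, Mrpl19, Mrpl38, Mrpl4, Mrpl54, Mrps28, Mrps34, Mrps35, Timm21, Tomm40l and Tomm7. The ETS motif was in 35.8% of member windows, 18.0% of windows of listed genes with 100 reads or more and 8.86% of all 32851 windows. YY1 was in 16.8%, 7.10% and 6.34%, and NRF1 in 15.8%, 10.3% and 4.60%. The E-box, at 10.5%, 9.91% and 7.15%, and the CCAAT box, at 36.8%, 38.4% and 37.4%, were nearer to the other windows.

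Motif content was also counted by direction of the difference. Of the 15 members with a window that were 2-fold higher in the library from the KO host, 6 held the ETS motif, 2 NRF1, 3 YY1, 2 the E-box and 9 the CCAAT box. Of the 12 that were 2-fold lower, 3 held the ETS motif, 2 NRF1, 5 YY1, 2 the E-box and 4 the CCAAT box. Over all 87 members with a window, 33 held the ETS motif, 15 NRF1, 16 YY1, 8 the E-box and 32 the CCAAT box. With so few genes the counts by direction are coarse, and no test was run on them. The factors themselves, a heterodimer of Gabpa with a Gabpb subunit, Nrf1 and Yy1, were measured as well. Gabpa had 5396 and 4725 reads, a ratio of 0.976 (0.939 to 1.02). Gabpb1 had a ratio of 1.03 (0.944 to 1.11) and Gabpb2 of 0.844 (0.811 to 0.878). Yy1 had 7215 and 6778 reads, a ratio of 1.05 (1.01 to 1.08). Nrf1 had 849 and 442 reads, 1.72-fold lower (1.53 to 1.94).

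**Figure D5:**
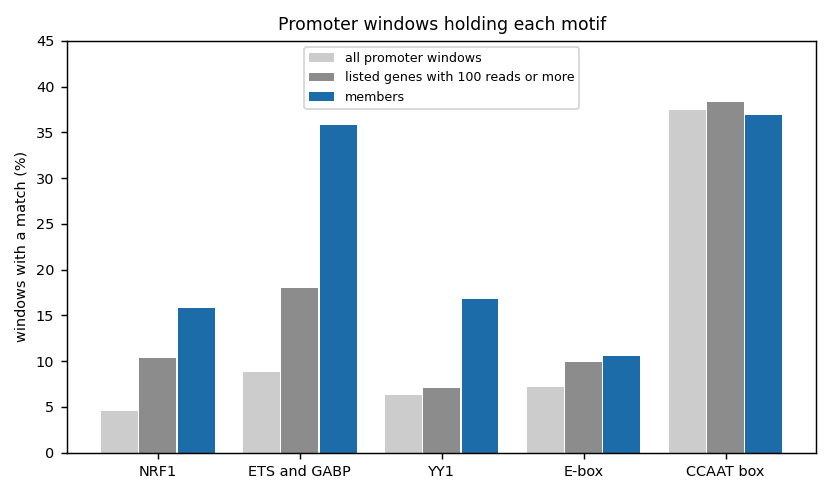
Share of RefSeq promoter windows (300 bases) holding each motif among all 32851 windows, windows of listed genes with 100 reads or more, and the 95 windows of members. The ETS and GABP motif is in 35.8% of member windows and 8.86% of all windows, while the CCAAT box is at similar shares in all 3 sets.

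Other genes of the same pathways, counted from fixed lists by the rule of 100 reads and 2-fold, also went both ways. By that rule 8.36% of all listed genes were higher and 11.2% lower, shares to set beside each list here and below. The lists are small, so their counts are coarse, and no test was run on them. The shares of all genes are not matched to the read depth of a list. Mitoribosomal subunits under other names had 5 of 7 symbols listed (Ict1 and Kgd4, the other two, are further names of Mrpl58 and Mrps36) and 4 with enough reads: 1 was higher, Aurkaip1 with 66 and 121 reads, and 0 were lower. Dap3, a small subunit protein, had 1105 and 1288 reads, a ratio of 1.30 (1.20 to 1.41), and Ptcd3, another, had 1749 and 1021 reads, a ratio of 0.651 (0.602 to 0.704). Of 22 assembly factors, 2 were higher (Ngrn and Rpusd3) and 4 lower (Trub2, Mpv17l2, Mterf4 and Malsu1), with Trub2, a pseudouridine synthase, at 727 and 212 reads and Mpv17l2 at 368 and 121. Of 16 translation and mRNA factors, 2 were higher (Coa3 and Mtif3) and 4 lower (Mtres1, Mtfmt, Mtrf1l and Mtrfr). Coa3, which helps start cytochrome oxidase assembly, had 21 and 163 reads, 8.65-fold higher (5.48 to 14.4), and Mtres1 had 156 and 2 reads, a ratio of 0.0143 (0.00172 to 0.0525). Coa3 and Mtres1 each passed the read minimum through the library where they were high.

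Of 12 sorting and assembly genes of the outer and inner membrane, 0 were past 2-fold in either direction, with Mtx2, a metaxin, at a ratio of 1.71 (1.58 to 1.84) and Agk, a TIM22 subunit, at 0.557 (0.477 to 0.651). Of 16 motor, chaperone and peptidase genes, 2 were higher and 1 lower, Immp2l, with 209 and 90 reads. Of all listed genes with 100 reads or more, 8.36% were 2-fold higher and 11.2% 2-fold lower. Pam16, which regulates the import motor, had 22.6 and 255.8 reads, 12.6-fold higher (8.09 to 19.9), and passed the read minimum through the library where it was high. Clpp, a matrix protease, had 127 and 231 reads, 2.03-fold higher (1.63 to 2.54). Hspa9, the motor's chaperone and the deepest gene of that list, had 12609 and 12436 reads, a ratio of 1.10 (1.07 to 1.13). Its exchange factors lay on opposite sides, Grpel1 with 368 and 602.3 reads, a ratio of 1.82 (1.60 to 2.08), and Grpel2 with 1390 and 744 reads, a ratio of 0.597 (0.545 to 0.653).

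The messages that the mitochondrial ribosome translates were slightly lower by their median. The 13 mitochondrially encoded mRNAs had a median log2 ratio of -0.15, with 0 past 2-fold, between mt-Atp8 at 0.677 (0.653 to 0.702) and mt-Nd4l at 1.04 (1.01 to 1.07). Both overlap a neighbour on the same strand, mt-Atp6 and mt-Nd4, so their reads are uncertain. Genes for transcription and copying of the mitochondrial genome had a median of -0.26 over 9 genes, with Twnk, the helicase, higher at 193 and 438.2 reads and 0 lower. Twnk overlaps Mrpl43, which had 225 and 166.8 reads. Of 11 regulators of mitochondrial biogenesis and stress, 0 were 2-fold higher and 1 was lower, Ddit3, a stress-induced transcription factor, with 1028 and 353 reads, 2.61-fold lower (2.31 to 2.96). Atf4, the highest ratio of this list, had 10095.5 and 12665.2 reads, a ratio of 1.40 (1.36 to 1.44). Myc, which drives many mitoribosomal genes, had 1739 and 1878 reads, a ratio of 1.20 (1.13 to 1.29).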

How the data were processed

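The authors deposited 1 table of log2 values, log2(FPKM + 1) per the file headers, with 1 column per library. STAR 2.7.8a, Partek and mm39 are named in the submitters' processing notes, with no role given. The sources used here do not give the annotation release, strand handling, treatment of multiply mapped reads or filters. FPKM times the listed length in kilobases summed to 1000000 in each library. That length is the genomic span in 100% of rows, and its end lies 1 base past the gene, so ends are printed 1 base lower.

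Recovered reads are whole multiples of the step found in low values (whole within 0.1 read for 85.9% and 84.2% of values under 1000 reads). On simulated counts for the 12707 genes, with 200 changed 4-fold, the recovery gave 100% of these past 2-fold and 0 of 10590 unchanged genes with 100 reads or more. The simulated counts were whole and held counting error alone, so this checks the arithmetic of the recovery only. It gives no rate of false 2-fold differences for the real libraries. Ratios and their 95% Clopper-Pearson intervals use Python 3.11.15 and scipy 1.17.1. With 1 library per group, no test was run, and p-values, errors and paired fits were not possible.

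Members and lists were chosen with earlier results of these data known. The plan for named genes was, per family, the 3 highest and 3 lowest ratios and 2 deepest members, zeros, paralogues, small TIM chaperones and list extremes. Some list extremes under this plan are not named in the text. Alternatives covered the added constant, filters, centring, totals, whole reads and overlaps. Overlapping genes (26 members) are uncertain.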

Additional observations from a re-analysis of the deposited data

How the results depend on the processing

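No paired analysis was possible because there was 1 library per host genotype, and no replicate could be left out. The median difference of all members was 0.09 and lay between -0.04 and 0.11 under its 9 alternatives, so its sign was not the same in all. A move was judged against the counting half-width of a single gene, 0.21 for this median. The counting error of the median itself was not worked out. The small subunit median of 0.26 was -0.058 with no filter, -0.066 when the mean had to reach 2 and -0.39 as a log2 ratio of RPM, where other members enter. The Timm median of 0.29 was 0.10 as a mean. Members higher by 1 or more (2 of 56) were 8 of 56 with 0.1 added to FPKM and 1 of 56 with 5 added. They were 0 of 20 when the mean had to reach 2 and 17 of 88 as RPM ratios. With whole reads only they were 1 of 42, and without overlapping genes 1 of 43. Members lower by 1 or more (3 of 56) were 5, 0, 0 and 14 under the first 4 of these settings, of the same numbers of members. Members 2-fold higher in RPM (17 of 88) were 1 of 26 with 1000 reads or more. Members 2-fold lower (14 of 88) were 2 of 26 there and 8 of 64 without overlapping genes. These counts fall partly because fewer members are kept, and the shares of all genes under these settings are not given. The alternatives run for single members keep the sign of nearly any difference by construction, so they say nothing about its stability. Depth limits single genes, since 35 of 99 members had fewer than 300 reads, and the spread between tumours was not measured. Recovered reads carry no molecular identifiers, so intervals cover counting error only.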
